A study of Mus musculus with 6 samples.

Results

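The 10 genes described here are a set of imprinted genes around Meg3 and H19: Meg3, Rian, Mirg and Dlk1 of the Dlk1-Meg3 domain, H19 and Igf2, the pair Cdkn1c and Kcnq1ot1, and Peg3 and Mest. They were taken by symbol from the deposited table of counts, which held all 10 among its 53735 rows. Mouse aorta was sequenced in 2 genotypes, a knockout (KO) of Mymsl, a long noncoding RNA, and the wild type (WT), each with 3 libraries. The labels' protocols give medial smooth muscle cells, purified before extraction, as the source of RNA, and the kit, Illumina TruSeq Stranded mRNA, selects polyadenylated RNA. The sources used here give no age, sex or strain of the mice, nor how Mymsl was deleted, nor whether each library is a single mouse, so the spread behind each p-value is that of these libraries and may be in part technical. The sources mention pairs of mice but do not say what a replicate number shares. A total of 9 genes passed the filter on low counts, and Dlk1 did not.

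An imprinted gene is expressed mainly from the copy inherited from a single parent, because its control region carries DNA methylation on the maternal or the paternal chromosome only. Many such genes regulate growth, are abundant in fetal tissue and fall to low levels after birth. In the Dlk1-Meg3 domain the noncoding RNAs Meg3, Rian and Mirg come from the maternal copy and the protein gene Dlk1 from the paternal copy. H19 and Igf2 share enhancers and are expressed from opposite copies, and the noncoding RNA Kcnq1ot1 silences neighbours such as Cdkn1c on its own copy. The counts do not separate the 2 parental copies, so levels below are sums over both.

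The libraries held between 20048216 and 25521123 counts. No row carried the name Mymsl. The only row called by edgeR, the clone-named RP23-57D10.3, had 314, 378 and 273 counts in the WT libraries and 0 in each KO library. Mitochondrially encoded genes held 5.66% to 9.02% of counts in WT and 10.003% to 18.9% in KO. All 10 smooth muscle markers examined were detected, with a summed level between 51206 and 54750 CPM (counts divided by library size scaled with the trimmed mean of M values) in WT and between 42564 and 56718 in KO. Markers of other cells were present as well: the 12 endothelial markers summed to 501 to 668 CPM in WT and 587 to 976 in KO, and the 14 fibroblast markers, several of which smooth muscle also makes, to 8875 to 10443 and 8186 to 9473 CPM.

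Start regions of 3 genes are shown here: Meg3, which had the smallest p of the set, Rian, its neighbour on the same strand, and Peg3, which had the most counts. The sequences are from RefSeq on GRCm38.p6, whose table held start windows of 8 of the 10 genes, without H19 and Cdkn1c. Capitals mark matches, on either strand, to TGCCGC (the hexamer bound by the imprint-maintaining protein ZFP57 when methylated), TGACGTCA (the cAMP response element) and TATAAA (the TATA box). GCCATNTT, a motif of YY1, was searched too.
Meg3, chr12:109540746-109541045, plus strand: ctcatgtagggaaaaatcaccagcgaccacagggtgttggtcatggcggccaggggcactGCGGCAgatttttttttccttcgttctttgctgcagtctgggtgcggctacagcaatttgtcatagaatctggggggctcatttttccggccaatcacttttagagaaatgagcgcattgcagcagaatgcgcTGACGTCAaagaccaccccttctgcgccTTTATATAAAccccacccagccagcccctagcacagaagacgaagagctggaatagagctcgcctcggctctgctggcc
Rian, chr12:109603695-109603994, plus strand: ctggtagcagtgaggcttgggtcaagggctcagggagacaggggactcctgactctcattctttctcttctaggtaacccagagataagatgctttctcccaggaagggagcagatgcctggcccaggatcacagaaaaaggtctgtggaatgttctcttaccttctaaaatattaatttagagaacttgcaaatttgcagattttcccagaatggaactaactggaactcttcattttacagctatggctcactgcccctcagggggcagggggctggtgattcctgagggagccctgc
Peg3, chr7:6730420-6730669, minus strand: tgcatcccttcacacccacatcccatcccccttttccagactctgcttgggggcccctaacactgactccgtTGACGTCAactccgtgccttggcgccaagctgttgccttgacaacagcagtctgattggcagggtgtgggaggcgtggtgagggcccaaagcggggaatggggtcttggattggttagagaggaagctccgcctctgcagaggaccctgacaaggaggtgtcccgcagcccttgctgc
The Meg3 window of 300 bases, with its start after 250 bases, held 1 match to TGCCGC, 1 to TGACGTCA and 2 to TATAAA that overlap each other on opposite strands. It had 13 CpG dinucleotides, against a median of 7 over 32851 start windows of the same length. Another Meg3 start window, chr12:109545148-109545447, is not printed and held 1 CpG dinucleotide and none of the 4 motifs. The Rian window held none of the 4 motifs and 0 CpG dinucleotides. In the Peg3 window, of which only the part before the start is printed, TGACGTCA matched once. Among the 8 genes with windows, some of which have several starts, 3 had a match to TGCCGC (Meg3, Mest and Igf2), 2 to TGACGTCA, 1 to TATAAA and 0 to GCCATNTT. Counted by window, 4 of the 14 windows of these genes held TGCCGC, 2 TGACGTCA, 1 TATAAA and 0 GCCATNTT. The Mest windows with TGCCGC overlap each other and hold the same matches. Of all windows in the RefSeq table, 11.6% held TGCCGC, 1.79% TGACGTCA, 13.6% TATAAA and 6.05% GCCATNTT. These are matches of letters, and binding was not measured.

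Several of the genes are hosts of microRNAs, and the mature forms lying within the spans of Meg3, Rian, Mirg, H19 and Mest are exemplified below, in the same order, with the seed (bases 2 to 8) in capitals.
mmu-miR-770-5p: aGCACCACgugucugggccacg
mmu-miR-370-3p: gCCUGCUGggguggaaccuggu
mmu-miR-410-3p: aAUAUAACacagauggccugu
mmu-miR-675-5p: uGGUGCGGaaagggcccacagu
mmu-miR-675-3p: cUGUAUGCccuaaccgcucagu
mmu-miR-335-5p: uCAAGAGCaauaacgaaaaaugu
No 2 of these share a seed. The spans of the 10 genes contain 21 RefSeq microRNA hairpins on the host's strand, 14 of them within Mirg. All 21 had a row in the count table, 18 of these rows were at 0 in every library, and the 21 rows together held 3 counts over the 6 libraries. Mature microRNAs were not measured by this kit, and the values below are those of the host transcripts.

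None of the 9 tested genes passed in edgeR (adjusted p under 0.05 over all 14145 tested rows), where 0.00707% of rows passed. At an unadjusted p under 0.05 there were 2, Meg3 and Kcnq1ot1, both higher in KO, against 14.6% of all tested rows in either direction and 6.8% higher (7.76% lower). These were also the 2 genes whose KO libraries all lay above all WT libraries, as 10.5% of tested rows did, and no gene had all KO libraries below, as 11.3% of rows did. In DESeq2 on the same rows, 4 of the genes were given an adjusted p: Meg3 passed, and Rian, Peg3 and Cdkn1c did not. Of the 9208 rows given one, 2.22% passed in either direction, and 0.728% of the 9208 passed as higher in KO. When DESeq2 was fitted to all rows of the table, 1.85% of the 10374 rows given an adjusted p passed, and none of these genes did. Limma-voom called none of the 9. The log2 fold changes (KO over WT) were above 0 for 8 of 9 genes, with a median of 0.19, beside 52.5% of all tested rows above 0 and a median of 0.01.

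**Figure D1:**
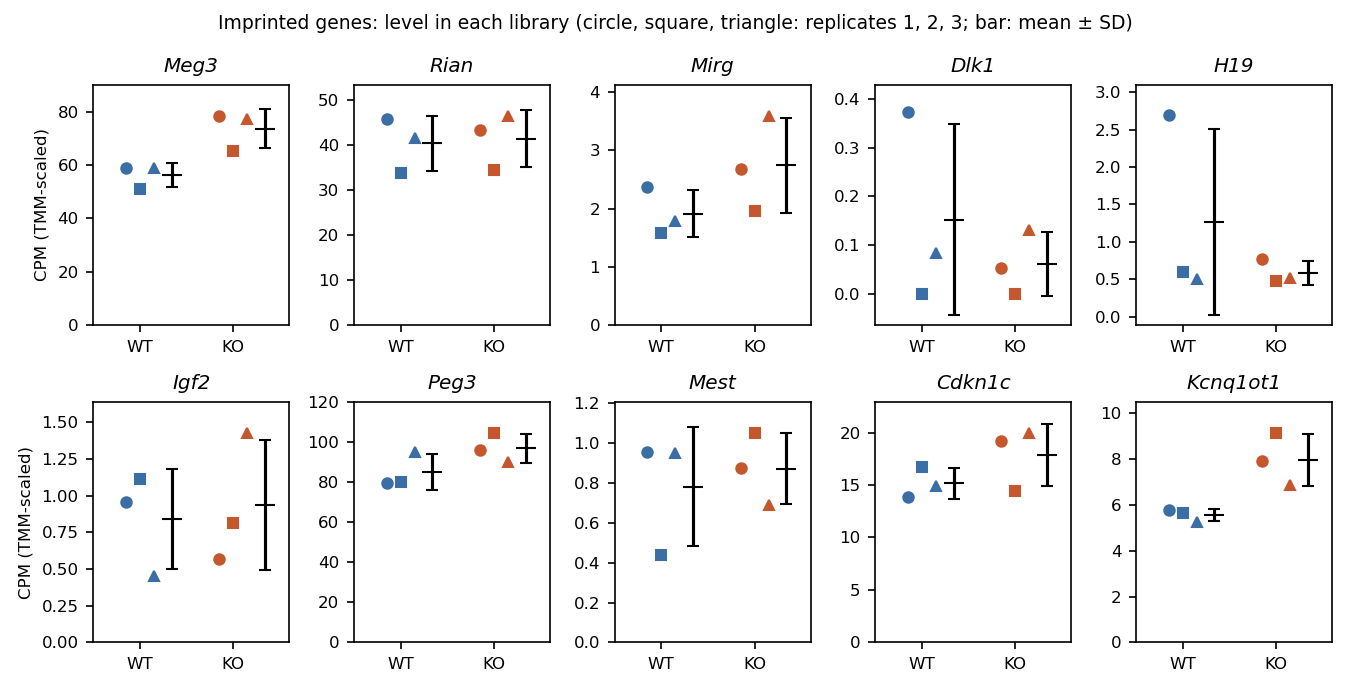
Level of each imprinted gene in CPM (linear axis) in the 3 WT (blue) and 3 KO (orange) libraries, with the mean ± SD of each group beside the points. For Meg3 and Kcnq1ot1 all KO libraries lie above all WT libraries, and for H19 WT replicate 1 stands at 2.70 CPM while the other 5 libraries lie between 0.478 and 0.774 CPM.

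Meg3, a long noncoding RNA made from the maternal chromosome and studied for growth-restraining effects, was the member with the smallest p. The gene spans 109541001 to 109571726 of chromosome 12 on the plus strand (GENCODE M21, GRCm38). WT replicates 1, 2 and 3 measured 58.9, 51.0 and 59.0 CPM, and the corresponding KO libraries 78.4, 65.4 and 77.2 CPM. The lowest KO library thus stood above the highest WT library, and replicate 2 was the lowest library in both groups. The log2 fold change was 0.39 ± 0.092 (SE, n = 3 per group), or 30.9% higher in KO, with a 95% interval from 0.17 to 0.60, and it did not pass in edgeR (adjusted p = 0.261). In DESeq2 the adjusted p was 0.0436 in a fit to the rows that passed the filter and 0.0513 in a fit to all rows, where it was not called. Leaving out any single library kept the log2 value between 0.32 and 0.47, with edgeR adjusted p between 0.234 and 0.575. The mitochondrial share was also higher in each KO library than in each WT library. Of the smooth muscle markers, 1 of 10 had a higher mean in KO, and their median log2 fold change was −0.14. A higher mean in KO was found for 10 of 12 endothelial, 11 of 12 macrophage, 10 of 12 fat cell, 10 of 14 fibroblast and 9 of 12 heart muscle markers (Nppb at 0). It was found for 6 of 12 skeletal muscle (Myod1 at 0), 5 of 10 Schwann cell and nerve and 1 of 7 red blood cell markers. Over all tested rows, 52.5% had a log2 fold change above 0. The endothelial sums of KO replicates 1 and 2, 630 and 587 CPM, lay within the WT range of 501 to 668, and KO replicate 3 stood at 976. KO replicate 2 had the lowest macrophage sum of all libraries. The macrophage markers summed to 56.1 to 98.3 CPM in WT and 51.7 to 146 in KO, the fat cell markers to 590 to 853 and 674 to 801, and the heart muscle markers to 79.1 to 112 and 90.2 to 162. The part of these cell types in the Meg3 value was not tested. With mitochondrially encoded and hemoglobin genes left out, 14133 rows remained of 14145, and Meg3 again had a log2 fold change of 0.39. So few rows can hardly change the scaling, and the part of the mitochondrial share in the Meg3 value was not tested. Because the samples are bulk RNA, more RNA per cell and more cells that express the gene cannot be told apart, here or below.

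Rian, the noncoding RNA that follows Meg3 on the same strand and carries many small nucleolar RNAs in its introns, gave 45.7, 33.7 and 41.7 CPM for the WT libraries and 43.4, 34.3 and 46.5 CPM for the KO libraries. The groups overlapped fully, and replicate 2 was again lowest in both. Its log2 fold change was 0.04 ± 0.144 (SE), with a 95% interval from −0.30 to 0.37 that includes values as large as the lower part of the Meg3 interval (edgeR adjusted p = 0.918). Mirg, the most distal of the 3 noncoding RNAs and a host of microRNAs, was counted 57, 40 and 43 times in the WT libraries and 52, 41 and 83 times in the KO libraries. In CPM this was 1.91 ± 0.405 (SD, n = 3) in WT and 2.74 ± 0.817 in KO, with KO replicate 3 at 3.59 CPM above all others and KO replicate 2 within the WT range. The log2 value was 0.52 ± 0.282 (SE; edgeR adjusted p = 0.412), and 0.28 without KO replicate 3. Dlk1, which encodes a transmembrane protein related to Notch ligands that restrains fat cell formation, was nearly silent, with counts of 9, 0 and 2 (WT) and 1, 0 and 3 (KO). It lay below the filter in both genotypes, and no fold is given.

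The order of the genes in the domain was Dlk1, Meg3, Rian and Mirg, with Rian starting 62.9 kb and Mirg 188.8 kb after the Meg3 start and Dlk1 starting 88.2 kb before it. In the table, 118 rows ran from Dlk1 to Dio3, the thyroid hormone deiodinase gene of the same domain. Of these, 17 had any count, and Meg3, Rian and Mirg together held 99.6% of the 14767 counts. The 61 microRNA rows among them summed to 2 counts.

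Within each library, the WT replicates 1, 2 and 3 held 77.7, 66.1 and 70.6 Rian counts per 100 Meg3 counts, and the KO libraries 55.4, 52.6 and 60.2. This ratio needs no scaling between libraries, and its highest KO value lay below its lowest WT value. The difference on the log2 scale was −0.35 (exact two-sided permutation p = 0.1, the smallest that 3 against 3 libraries allow, and 0.5 adjusted over 5 ratios). The same separation below WT was found for 50.3% of the 14144 other tested rows when each was divided by Meg3, a share so large that the separation is no result about Rian. Ratios to Meg3 were separated above WT for 0.566% of rows. Mirg had 3.39 ± 0.551 (SD, n = 3) counts per 100 Meg3 counts in WT and 3.69 ± 0.859 in KO, with overlapping groups (exact permutation p = 0.7).

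**Figure D2:**
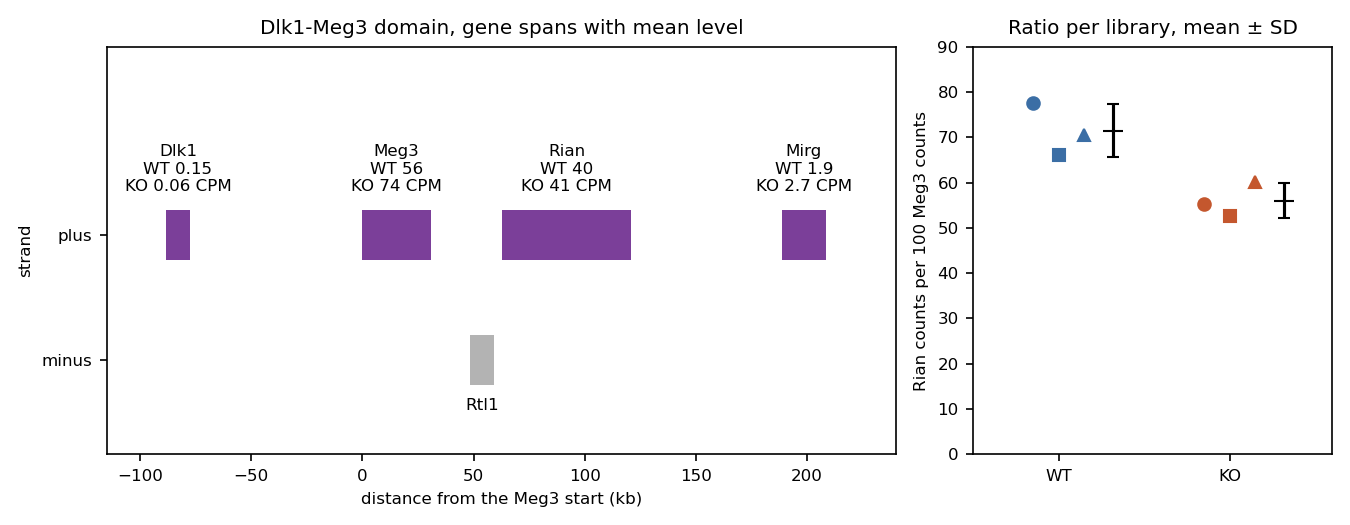
Left, gene spans of the Dlk1-Meg3 domain by distance from the Meg3 start (kb) and strand, with mean CPM of WT and KO for the genes described (purple), while Rtl1 (grey) was not analysed here. Right, Rian counts per 100 Meg3 counts in each library (circle, square and triangle for replicates 1, 2 and 3), with mean ± SD: the KO libraries lie between 52.6 and 60.2, below the WT libraries at 66.1 to 77.7.

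H19, a maternally expressed noncoding RNA that is abundant in fetal tissue, was low except in a single library. WT replicates 1, 2 and 3 held 65, 15 and 12 counts, and the KO libraries 15, 10 and 12. In CPM the WT values were 2.70, 0.596 and 0.497 and the KO values 0.774, 0.478 and 0.519, so WT replicate 1 stood apart and the other 5 libraries overlapped. The log2 fold change of −1.10 ± 0.686 (SE; edgeR adjusted p = 0.466) rested on that library: without WT replicate 1 it was 0.10 (edgeR adjusted p = 0.926). WT replicate 1 also had the highest Dlk1 count, 9, and the highest summed level of the 7 red blood cell markers, 152 CPM against 20.3 and 76.1 in the other WT libraries and 25.6 to 35.7 in KO. The part of these in the H19 value was not tested.

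Igf2, the paternally expressed fetal growth factor, was counted 23, 28 and 11 times (WT) and 11, 17 and 33 times (KO). Its levels of 0.841 ± 0.343 CPM (SD, n = 3) in WT and 0.936 ± 0.443 in KO overlapped (log2 0.17 ± 0.455 SE, edgeR adjusted p = 0.884), and the sign turned without WT replicate 3 (−0.13) or without KO replicate 3 (−0.28). The annotation places an overlapping gene on the same strand over Igf2 and the antisense Igf2os across it, and how shared reads were counted is unknown here. Igf2 counts per 100 H19 counts ran from 35.4 in WT replicate 1 to 275 in KO replicate 3, with overlapping groups (exact permutation p = 0.5).

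Kcnq1ot1, the antisense RNA that starts inside Kcnq1, had WT levels of 5.77, 5.64 and 5.26 CPM and KO levels of 7.89, 9.12 and 6.88 CPM. The WT libraries lay close together, and all KO libraries stood above them. The log2 fold change was 0.52 ± 0.143 (SE), or 43.2% higher in KO, with a 95% interval from 0.19 to 0.85 (edgeR adjusted p = 0.264, and 0.146 in DESeq2 on all rows). It lay between 0.41 and 0.61 when each library was left out. The annotation gives Kcnq1ot1 as a single exon of 93092 bases inside Kcnq1. The exons of the 2 genes share 121 bases. The sources used here give no strand setting of the counting, so reads of these bases cannot be assigned to either gene. Reads of unspliced Kcnq1 RNA could likewise not be told apart from Kcnq1ot1. Kcnq1 itself, a potassium channel gene, had between 8 and 21 counts in a library (log2 0.26 ± 0.428 SE).

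Cdkn1c, the cyclin-dependent kinase inhibitor p57, is the growth-restraining gene of the same domain. Its WT levels were 13.8, 16.7 and 14.9 CPM, and its KO levels 19.2, 14.5 and 19.9 CPM. KO replicates 1 and 3 lay above all WT libraries and KO replicate 2 within their range (log2 0.24 ± 0.139 SE, edgeR adjusted p = 0.442). The log2 value was 0.15 without KO replicate 3 and 0.37 without KO replicate 2. Of the 2039 exon bases of Cdkn1c, 625 are overlapped by a gene on the opposite strand. Reads of the shared bases cannot be told apart without the strand setting. Cdkn1c counts per 100 Kcnq1ot1 counts were 240, 296 and 284 in WT and 244, 159 and 290 in KO (exact permutation p = 0.5). KO replicate 2 was highest in Kcnq1ot1 and lowest in Cdkn1c among the KO libraries, so its ratio, the lowest of the KO libraries, follows from these levels.

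Peg3, a paternally expressed zinc finger protein gene, was the member with the most counts, between 1867 and 2304 in a library. The WT libraries stood at 79.8, 80.3 and 95.4 CPM and the KO libraries at 96.3, 105 and 90.1 CPM. WT replicate 3 lay above KO replicate 3, so the groups overlapped (log2 0.19 ± 0.091 SE, 95% interval from −0.03 to 0.40, edgeR adjusted p = 0.377). Mest, a paternally expressed gene for a protein of the alpha/beta hydrolase fold, was low, with counts of 23, 11 and 23 (WT) and 17, 22 and 16 (KO). Its log2 fold change was 0.16 ± 0.377 (SE; edgeR adjusted p = 0.865), and it was −0.13 without WT replicate 2. Copg2, which overlaps the end of Mest from the opposite strand, held between 608 and 1053 counts in a library, and reads of the shared bases cannot be told apart without the strand setting.

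**Figure D3:**
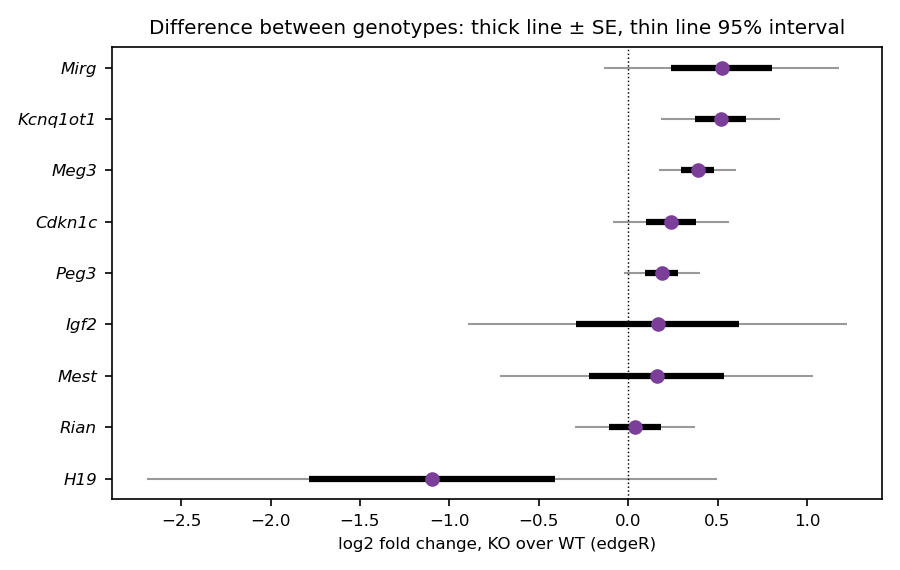
Log2 fold change of the 9 tested genes, KO over WT, from edgeR (thick line ± SE, thin line 95% interval, dotted line at 0). The intervals of Meg3 (0.17 to 0.60) and Kcnq1ot1 (0.19 to 0.85) lie above 0, and none of the genes passed after adjustment over all rows.

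Levels of different genes were compared only as CPM per kilobase of merged exons, which depends on the exons of GENCODE M21. By the WT mean the order was Cdkn1c (7.44 ± 0.718, SD, n = 3), Peg3 (6.39 ± 0.665), Meg3 (3.11 ± 0.253), Rian (2.21 ± 0.336), H19 (0.514 ± 0.505), Mirg (0.262 ± 0.056), Mest (0.198 ± 0.076), Igf2 (0.147 ± 0.06), Kcnq1ot1 (0.060 ± 0.003) and Dlk1 (0.027 ± 0.035). Over the 6 libraries the ranges of neighbours in this order were apart between Peg3 and Meg3, between Meg3 and Rian and between Rian and H19. Cdkn1c and Peg3 overlapped, as did each neighbouring pair from H19 down to Dlk1. For H19, WT replicate 1 stood at 1.10, and the other libraries lay within 0.194 to 0.314, a range that Mirg and Mest overlapped. In KO, Meg3 stood at 4.07 ± 0.400 and Rian at 2.27 ± 0.346.

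**Figure D4:**
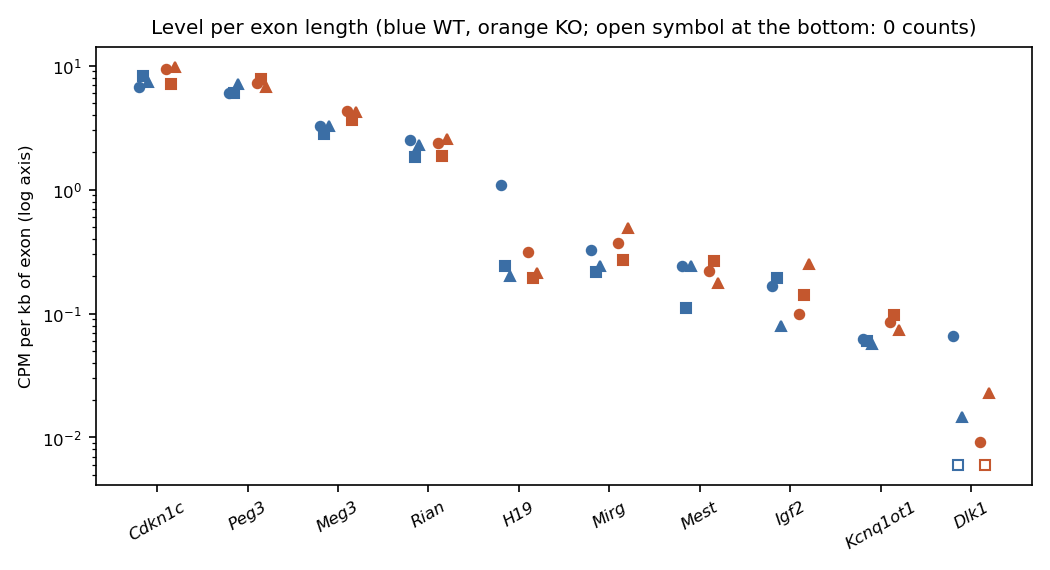
Level per exon length (CPM per kb, log axis) of each gene in every library, ordered by the WT mean, with open symbols for 0 counts. Cdkn1c, Peg3, Meg3 and Rian lie at 1.85 or above in every library, and the other genes lie at 0.492 or below apart from H19 at 1.10 in WT replicate 1.

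The profile of each gene over the 6 libraries was compared by the root mean square difference between log2 CPM centred on each gene's mean, among named genes of at least 10 CPM. Closest to Meg3 were Mill2 (0.0451), Usf1 (0.0502), Sipa1 (0.0703), Rbm28 (0.071) and Arrb2 (0.071), each of which had a log2 fold change between 0.28 and 0.37. Because they were picked for likeness to Meg3 over the same libraries, fold changes near that of Meg3 follow from the choice. Its domain neighbours were farther away: Rian at 0.196 was rank 2007 of 14144 tested rows, and Mirg at 0.232 was rank 4124. Closest to H19 were Alb (0.45), the plasma protein albumin, Hp (0.597), haptoglobin, Car3 (0.609), a carbonic anhydrase of fat and muscle, S100a4 (0.641) and Large (0.664). Among all 14144 tested rows these were ranks 11, 48, 51, 79 and 115. All 5 were highest in WT replicate 1, where H19 stood 1.845 above its mean on the log2 scale, so this follows from the choice. Alb stood there 1.69, Hp 1.13, S100a4 0.50 and Large 0.49 above their means.

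Imprinted genes outside these domains had values on both sides of 0. Of the 42 tested genes of other imprinted domains, 18 had a log2 fold change above 0 and the median was −0.06, beside 0.01 over all tested rows. In edgeR 0 passed and 6 had an unadjusted p under 0.05, beside 14.6% of all tested rows. DESeq2 gave several of the 42 no adjusted p. Of all rows given one 2.22% passed, and 2 of the list did. These were Herc3, a ubiquitin ligase gene (35.0 ± 2.73 CPM in WT, 25.5 ± 1.93 in KO, log2 −0.46 ± 0.089 SE, DESeq2 adjusted p = 0.0149, edgeR adjusted p = 0.239), and Ube3a, the ubiquitin ligase gene of the Prader-Willi and Angelman domain (99.9 ± 3.26 and 80.5 ± 4.55 CPM, log2 −0.31 ± 0.063 SE, DESeq2 adjusted p = 0.0195, edgeR adjusted p = 0.239). Pon3 followed with a log2 value of −0.15 ± 0.051. Several genes of this list are imprinted only in certain tissues, and whether they are imprinted in the aorta was not measured.

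In the Kcnq1 domain 12 genes were tested, 9 were above 0 with a median of 0.14, and 0 passed in edgeR. DESeq2 gave an adjusted p to only part of these genes and called none. The non-members with the smallest p were Cars, a tRNA synthetase gene (0.18 ± 0.074), Tssc4 (0.14 ± 0.068) and Tnfrsf26 (0.71 ± 0.396), the last at only 11 to 32 counts. Beside H19 and Igf2, Lsp1 had 0.31 ± 0.147, Tnnt3 0.48 ± 0.354 and Mrpl23 0.13 ± 0.139, and beside Peg3 the zinc finger gene Zim1 had 0.27 ± 0.359. Copg2, the coat protein gene next to Mest, was at 41.3 ± 2.03 CPM in WT and 33.8 ± 3.89 in KO (−0.29 ± 0.093 SE, edgeR adjusted p = 0.279). All its KO libraries lay below WT, as in 11.3% of all tested rows. No gene of these 4 domains passed in edgeR. In DESeq2 none passed among those given an adjusted p. Several were given none, H19, Igf2, Mest, Zim1, Kcnq1ot1, Tnnt3, Mrpl23 and Tnfrsf26 among them.

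**Figure D5:**
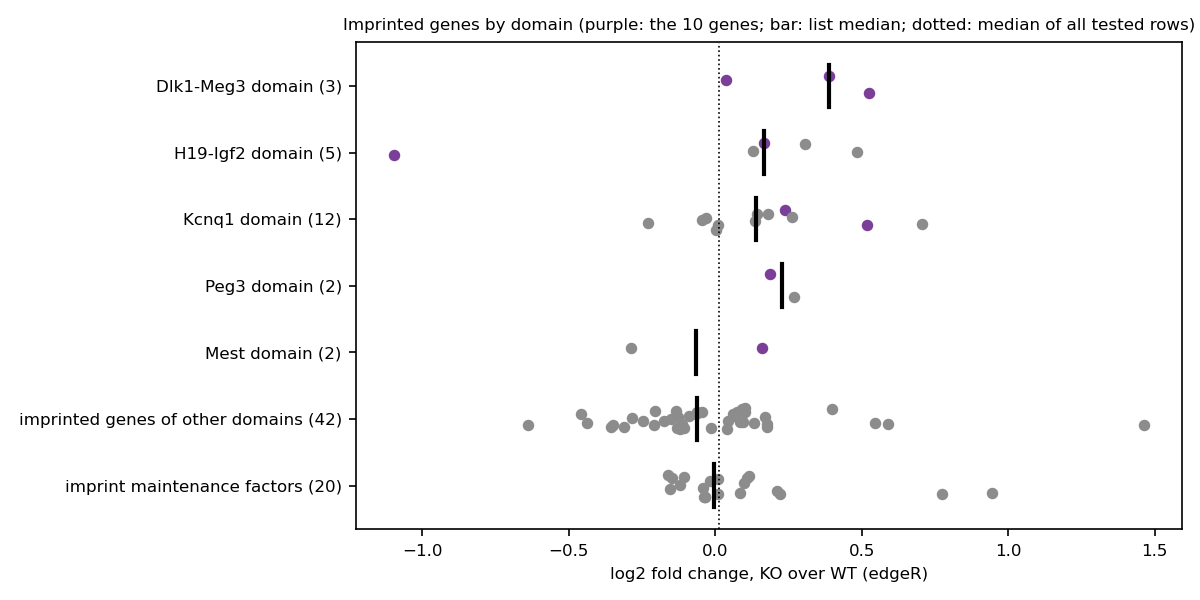
Log2 fold change (KO over WT, edgeR) of each tested gene by imprinted domain and for imprint maintenance factors, with the 10 genes in purple, others in grey, list medians as bars and the median of all tested rows dotted. The 42 genes of other domains have a median of −0.06, and H19 at −1.10 is the lowest point shown.

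Factors that maintain imprints had 20 tested genes, 10 of them above 0, with a median of −0.005. In edgeR 0 passed, and in DESeq2 0 passed among those given an adjusted p. An edgeR unadjusted p under 0.05 was found for 1, beside 14.6% of all tested rows. Uhrf1, which recruits the maintenance DNA methyltransferase, was low with 7 to 30 counts (log2 0.95 ± 0.389 SE). Ctcf, the insulator protein of the H19-Igf2 control region, stood at 69.5 ± 1.95 CPM (WT) and 62.3 ± 4.76 (KO; log2 −0.16 ± 0.069), and Arid4b had −0.12 ± 0.055. Among 15 tested IGF receptors, binding proteins and RNA-binding partners of H19 and Igf2, 8 were above 0 and the median was 0.03. Leaving out WT replicate 2 turned this median to −0.020 and leaving out KO replicate 3 to −0.038, while it was 0.067 when KO replicate 2 was left out. In edgeR 0 of these genes passed. DESeq2 gave some of them no adjusted p. Of all rows given one 2.22% passed, and 1 of these genes did. That gene was Igfbp2, which encodes an IGF-binding protein, at 10.2 ± 2.32 CPM in WT and 17.1 ± 3.60 in KO (log2 0.75 ± 0.202 SE, DESeq2 adjusted p = 0.0394, edgeR adjusted p = 0.264). The receptor Igf1r had −0.28 ± 0.079, with every KO library below WT, as in 11.3% of all tested rows. Igf2r, itself imprinted and a scavenger of IGF2, had −0.29 ± 0.13. Of 16 tested cyclin-dependent kinase inhibitors and their partners, which include Cdkn1c, 12 were above 0 with a median of 0.20 and 0 passed in edgeR. In DESeq2 0 passed among those given an adjusted p. Cdk2 had 0.29 ± 0.114, Ccnd1 0.52 ± 0.222 and Ccna2 0.80 ± 0.374.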

How the data were processed

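The authors deposited whole-number, unnormalized counts for each gene of 3 WT and 3 KO libraries. Trimmomatic 0.36, STAR 2.6.0c, Subread 1.6.1 (which holds featureCounts) and GRCm38 are named, per the submitters' processing notes. The sources used here give neither the annotation release nor the settings for strand and multiply mapped reads, on which counts of overlapping genes depend.

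Counts were tested with the quasi-likelihood test of edgeR 4.0.16 (R 4.3.3), with genotype as the only term, TMM normalization and filterByExpr (minimum count 10, minimum total 15), which left 14145 rows. Two-sided p-values received Benjamini-Hochberg adjustment across every tested row (threshold 0.05). The log2 value divided by the root of F gave the standard error. DESeq2 1.42.0 and voom of limma 3.58.1 were run as alternatives on the same rows, together with other filters and scalings, a replicate block and leaving out each library. DESeq2 on all rows was added after the data were seen. The tests were first tried on simulated data. Within-library ratios used log2 counts with 0.5 added and exact permutation tests. Lists were described by counts and medians, with no list test. Coordinates and exon lengths came from GENCODE M21, which held all 10 symbols.

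Named genes were all 10 members, up to 3 other genes with the smallest p per list, and the 5 closest profiles to Meg3 and to H19. Kcnq1, as the host of Kcnq1ot1, and RP23-57D10.3, as the only edgeR call, were named outside that rule after their values were seen. Members and lists were chosen with earlier results of these data known. The value of 1 marker gene is not reported here.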

Additional observations from a re-analysis of the deposited data

How the results depend on the processing

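Among all tested rows, edgeR called 0 higher and 1 lower. DESeq2 called 67 and 137 on the same rows and 65 and 127 on all rows, edgeR without a filter called 5 and 4, and the replicate block called 0 in each direction. Leaving out a single library gave 0 to 2 higher and 0 to 1 lower, the 1 lower row being lost without WT replicate 1 and the 2 higher rows appearing without KO replicate 2. Of the imprinted genes, DESeq2 called 1 (Meg3, adjusted p = 0.0436), and every other setting, DESeq2 on all rows included, called 0. When single libraries were left out, signs turned for Rian (−0.078 without WT replicate 2, −0.054 without KO replicate 3, highest 0.16), H19 (0.10 without WT replicate 1, lowest −1.48), Igf2 (−0.13 and −0.28 without WT or KO replicate 3, highest 0.42) and Mest (−0.13 without WT replicate 2, highest 0.33), and for the log2 ratios of Mirg to Meg3 (range −0.069 to 0.24, negative without KO replicate 3) and Dlk1 to Meg3 (−1.94 to 0.11, positive without WT replicate 1). The cause was not tested. List medians moved by less than 1 SD between libraries of the list's mean log2 level, except the cyclin-dependent kinase list (0.094 at a mean count of at least 50, and 0.12 to 0.20 over left-out libraries) and the genes of other imprinted domains (−0.051 to 0.0038 over left-out libraries, above 0 without WT replicate 3). Medians near 0 also turned sign over left-out libraries: the IGF2 and H19 partners ran from −0.038 to 0.067, the imprint maintenance factors from −0.031 to 0.020 and the Mest domain from −0.22 to 0.042. Those of the H19-Igf2 domain (0.087 to 0.34), the Kcnq1 domain (0.090 to 0.18) and the Peg3 domain (0.10 to 0.35) stayed above 0. In the main fit the Mest and Peg3 domains had 2 tested genes each, the H19-Igf2 domain 5 and the Kcnq1 domain 12. These domain lists include members, so their medians are not separate from the member values.

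With the replicate number as a block, Meg3 had 0.39 (edgeR adjusted p = 0.301) and Kcnq1ot1 0.51 (0.301), and Rian to Meg3 kept −0.35. Deviations of same-numbered libraries correlated at 0.098, 0.139 and −0.056, and WT replicate 2 was the only WT library that correlated best with its own number. With 3 libraries per group, these correlations cannot show whether the numbers mark pairs. The main fit left the numbers out because the sources mention pairs of mice without saying what a number shares. Counts of 10 to 65 for H19, Igf2 and Mest limit these genes.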
